A study of Mus musculus with 10 samples.

Results

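A set of 10 genes that hold or release the brake on entry into the cell cycle was followed in mouse preadipocytes given bisphenol S (BPS). They were the p53 gene Trp53, its negative regulator Mdm2 and its target Ccng1, the inhibitors of cyclin-dependent kinases (CDKs) Cdkn1a, Cdkn1b, Cdkn2a and Cdkn2b, and the D cyclins Ccnd1, Ccnd2 and Ccnd3. The genes were taken by name as a list of arrest, senescence and G1 cyclin genes, and all 10 were among the 14593 genes tested, out of 32899 genes in the table. RNA came from preadipocytes of inguinal subcutaneous fat (iSAT) of male wild-type mice labelled WT C57 BL6. The 10 libraries were split evenly between the solvent DMSO alone (5) and BPS at 2.5 µM in DMSO (5), so both groups received the solvent. Exposure time, passage, confluence and batch were not given in the sources used here, and the library codes run through the DMSO samples before the BPS samples, so an effect of library order and the treatment cannot be told apart. Nothing in the labels says that replicates were separate animals or cultures, so p-values measure the spread between these libraries, which may be technical.

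A cell decides in G1 whether to divide. D cyclins, made in response to mitogens, activate CDK4 and CDK6, which phosphorylate the retinoblastoma protein and release E2F factors. INK4 proteins (p16Ink4a from Cdkn2a, p15Ink4b from Cdkn2b) block CDK4 and CDK6, and CIP/KIP proteins (p21 from Cdkn1a, p27 from Cdkn1b) bind a wider range of cyclin-CDK complexes. Cdkn2a also encodes p19Arf from a separate first exon and reading frame, and p19Arf holds back Mdm2, the ubiquitin ligase that removes p53. Cdkn1a, Mdm2 and Ccng1 are classical p53 target genes. In preadipocytes in culture, growth arrest precedes differentiation into fat cells, and p16Ink4a and p21 are common markers of senescence.

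Promoter windows show how the starts of Cdkn1a and Cdkn2a transcripts differ. Of the 10 genes, 8 had a window in the RefSeq promoter set of build GRCm38.p6, 11 windows in all, each reaching 250 bases before and 50 after a transcript start. The 120 bases before the start are printed for 5 of them, 5′ to 3′ on the gene's strand, because these starts belong to the transcripts described further on. Capitals mark motif matches, searched on both strands: a p53 consensus site of 20 bases made of 2 adjacent decamers with at most 1 mismatch and intact cores, the E2F words TTTCCCGC and TTTGGCGC, and the cyclic AMP response element TGACGTCA.
Cdkn1a, distal start, chr17:29090859-29090978, plus strand: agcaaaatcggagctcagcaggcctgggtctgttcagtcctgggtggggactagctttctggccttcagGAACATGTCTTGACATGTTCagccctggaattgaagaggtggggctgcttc
Cdkn1a, proximal start, chr17:29093649-29093768, plus strand: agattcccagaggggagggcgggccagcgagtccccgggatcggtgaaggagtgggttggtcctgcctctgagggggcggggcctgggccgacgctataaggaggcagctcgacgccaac
Cdkn2a, p19Arf start, chr4:89294620-89294739, minus strand: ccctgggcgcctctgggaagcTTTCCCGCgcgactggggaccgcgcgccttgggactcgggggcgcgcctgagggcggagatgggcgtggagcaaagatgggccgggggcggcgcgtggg
Cdkn2a, p16Ink4a start, chr4:89282193-89282312, minus strand: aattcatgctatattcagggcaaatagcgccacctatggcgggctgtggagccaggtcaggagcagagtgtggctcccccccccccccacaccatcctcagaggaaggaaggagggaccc
Cdkn2b, chr4:89311033-89311152, minus strand: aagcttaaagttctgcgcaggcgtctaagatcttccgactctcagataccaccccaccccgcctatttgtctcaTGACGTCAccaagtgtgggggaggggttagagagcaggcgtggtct

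The p53 match lay 51 to 32 bases before the distal Cdkn1a start, with 1 mismatch, and the printed stretch before the proximal start held no match. The proximal start lies further along the same strand, so the match is upstream of both starts, beyond the 120 bases printed for the proximal one. Over all 32851 promoter windows, 18 held such a match (0.0548%), and Cdkn1a was the only one among them of the 8 genes with a window. Ccnd1 and Ccnd2 had no window and were not searched. TTTCCCGC was found before the p19Arf start and in 1.07% of all windows, and TGACGTCA before the Cdkn2b start and in 1.79%. TTTGGCGC was in 0.514% of all windows and in none of these genes' windows. A match is a description of the letters and says nothing about whether a factor was bound.

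Total estimated counts per library lay between 37920689 and 42717227. The quasi-likelihood test of edgeR, Benjamini-Hochberg adjusted over all genes, called 711 of 14593 genes at an adjusted p under 0.05 (4.87%), 446 higher under BPS (3.06%) and 265 lower (1.82%). At an unadjusted p under 0.05 by edgeR, 10.2% of all genes were higher and 8.61% lower. DESeq2 called 4.39% higher and 2.99% lower of the 12894 genes it gave an adjusted p. With library size alone as scaling, the share of higher genes among the calls was 46.0% in place of 62.7%. Levels are given as CPM, counts scaled to the TMM-adjusted library size, and values after ± are SDs over the 5 libraries of a group. Of 8 preadipocyte markers, Cd34 and Thy1 rose and 0 fell by edgeR, while 5 of the 8 log2 fold changes lay below 0 (median -0.0115). Pdgfra, Pdgfrb, Dlk1, Ly6a and Thy1 had means of 186 to 968 CPM in each group. The other preadipocyte markers had smaller means. In DMSO and BPS these were 45.2 and 54.9 CPM for Cd34, 9.91 and 9.89 for Zfp423, and 2.45 and 2.13 for Dpp4. The 5 mature adipocyte markers had at most 5 counts in any library. Summed macrophage markers lay at 9.41 to 15.3 CPM in DMSO and 10.3 to 18.2 CPM in BPS, with Csf1r at 0. Summed endothelial markers lay at 17.3 to 22.7 and 16.7 to 22.5 CPM, and summed mesothelial markers at 9.06 to 11.03 and 10.99 to 12.9 CPM. Among the mesothelial markers, Msln and Upk3b stayed at 0, and the 2 tested went opposite ways. Krt19 was higher without overlap (log2 fold change 0.27, adjusted p = 0.0368 by edgeR). Wt1 was lower with overlap and did not pass the test (log2 fold change -0.59, adjusted p = 0.155 by edgeR). The 5 mural markers summed to 61.7 to 65.9 CPM in DMSO and 68.8 to 81.3 CPM in BPS, without overlap, and Mcam and Cspg4 rose. The part of these markers in the changes below was not tested, and in bulk RNA a shift in the share of a cell type and a shift in RNA per cell cannot be told apart.

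Of the 10 genes, 3 rose under BPS: the D cyclins Ccnd2 and Ccnd1 and the p21 gene Cdkn1a, by 11.1 to 15.3%. None fell by edgeR or by DESeq2 or limma-voom. Against this stand 4.87% called by edgeR, and 3.06% called higher, among all genes tested. At an unadjusted p under 0.05 by edgeR, 4 of the 10 genes were higher and 1, Cdkn1b, was lower, against 10.2% and 8.61% of all genes. The median log2 fold change of the 10 genes was 0.07, against 0.000319 over all genes tested, with 9 of 10 values above 0, of which Ccng1 turned negative without BPS replicate 1. Only Ccnd2 had no overlap between the groups, while 6.9% of all genes tested had none. Cdkn1a stood at the threshold, with an adjusted p of 0.0498, and the plots by library and of the changes show all 10 genes.

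**Figure D1:**
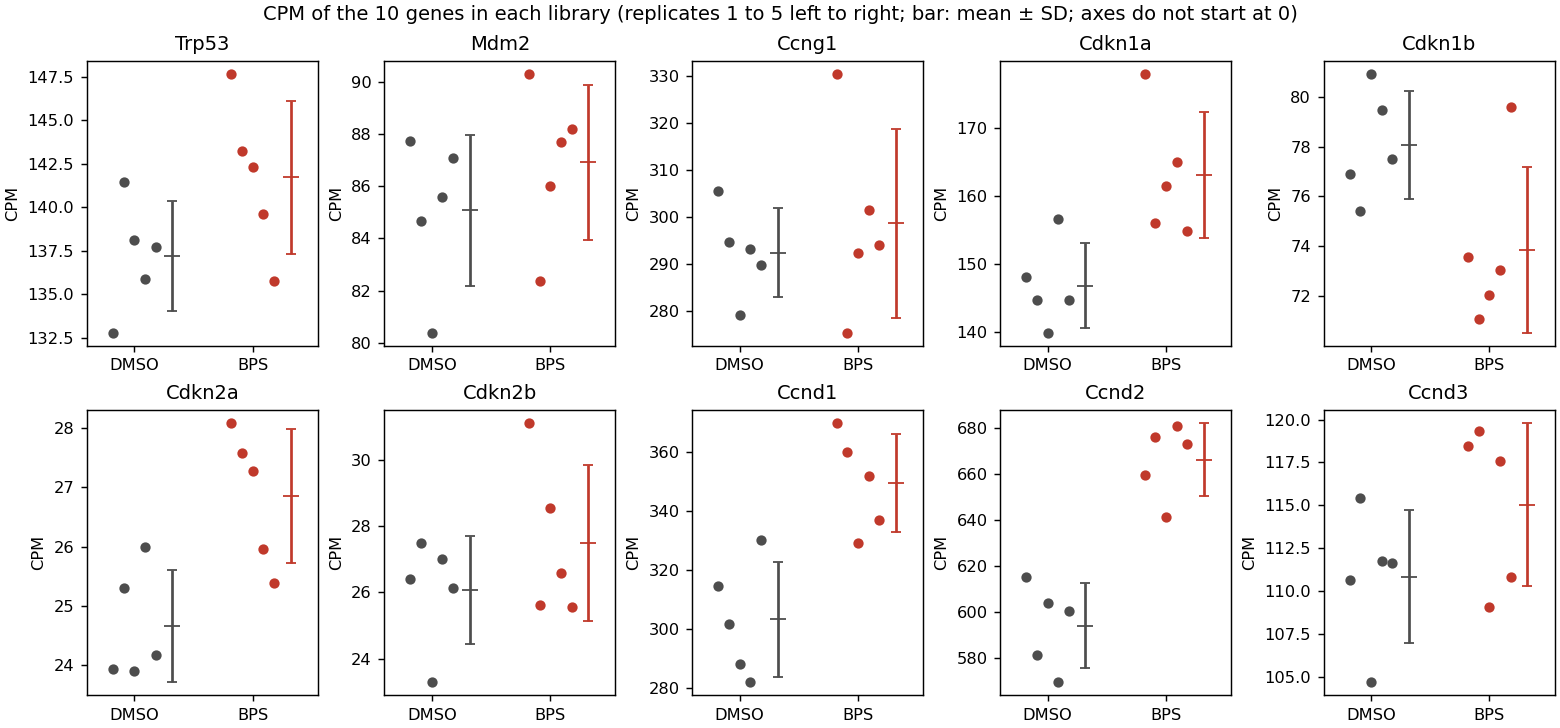
CPM (y axis, own range in each panel) of the 10 genes in the 5 DMSO libraries (grey) and the 5 BPS libraries (red), replicates 1 to 5 from left to right, with the mean and SD of each group. The 5 BPS values of Ccnd2 (641 to 681 CPM) lie above all DMSO values (569 to 615 CPM), and the groups overlap in the other 9 genes.

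Of the 3 D cyclins, Ccnd2 and Ccnd1 rose and Ccnd3 did not pass the test. Ccnd2, which encodes cyclin D2, stood at 615, 581, 604, 569 and 601 CPM in DMSO replicates 1 to 5 and at 659.5, 676, 641, 681 and 673 CPM in BPS replicates 1 to 5. Every BPS library lay above every DMSO library. That is a log2 fold change of 0.17 with SE 0.02, or a rise of 12.2%, and edgeR gave it an adjusted p of 0.00236. It ranked 94 among 14593 genes by p, and its adjusted p was at most 0.0257 in each of 18 alternative settings, which changed the scaling, the filter, the tool or the accession matching, added a replicate block, or left out 1 library. On the opposite strand, Gm43126 and 9330179D12Rik share 372 and 368 exonic bases with Ccnd2, and the latter had 12 to 23 counts per library.

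Ccnd1, which encodes cyclin D1, stood at 315, 302, 288, 282 and 330.0 CPM in DMSO and at 369.8, 360.0, 329, 352 and 337 CPM in BPS. DMSO replicate 5 reached into the BPS range, and the other 4 DMSO libraries lay below every BPS library. Its log2 fold change came to 0.20 with SE 0.04, a rise of 15.3%, and the adjusted p by edgeR was 0.0214. The call depended on single libraries, with an adjusted p by edgeR of 0.0506 to 0.0556 in the fits that lacked DMSO replicate 2, 3 or 4, or BPS replicate 2 or 4. A gene on the opposite strand, LTO1, shares 1100 exonic bases with Ccnd1 in the GENCODE annotation, and the strand setting of the counting was not given. LTO1 had a log2 fold change of 0.06 and did not pass the test (adjusted p = 0.676 by edgeR).

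Ccnd3, which encodes cyclin D3, stood at 111, 115, 105, 112 and 112 CPM in DMSO and at 118, 119, 109, 118 and 111 CPM in BPS. The groups overlapped, and its log2 fold change of 0.05 (95% interval -0.02 to 0.12) did not pass the test (adjusted p = 0.407 by edgeR). Whether the D cyclins differed from each other was not tested. Its exons share 361 bases with Bysl on the opposite strand, which rose by 0.16 on the log2 scale (adjusted p = 0.00952 by edgeR). A processed copy, Ccnd3-ps, is 96.3% identical to Ccnd3 over 881 bases, and how its reads were counted is unknown, so the value of Ccnd3 is uncertain.

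**Figure D2:**
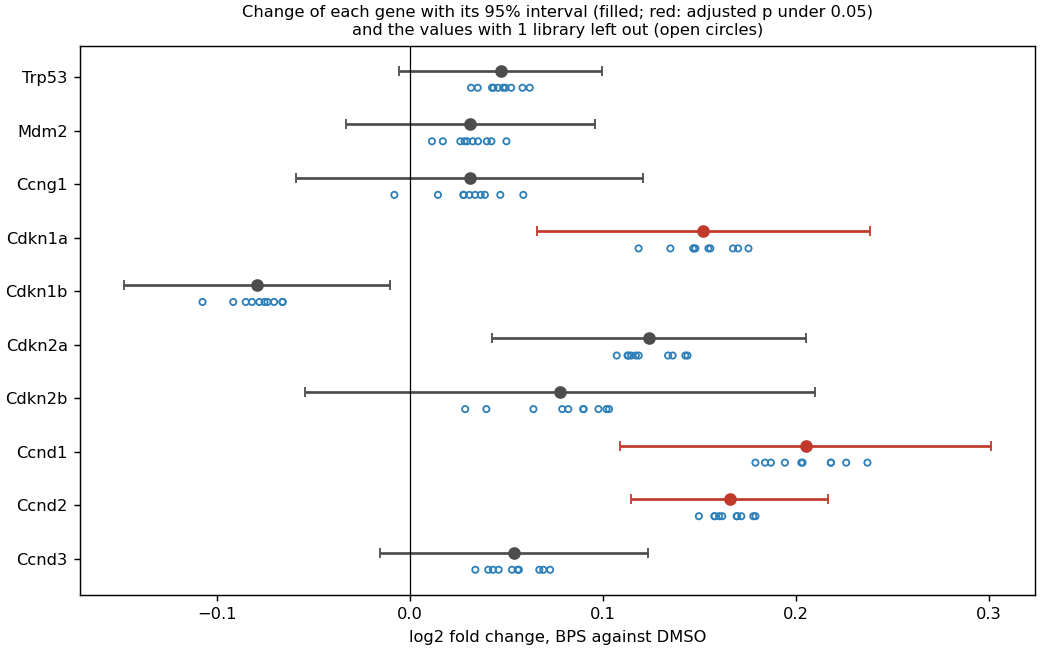
Log2 fold change of each gene, BPS against DMSO (x axis), with its 95% interval from the fit over all genes (filled points, red where the adjusted p is under 0.05), and the 10 values that each leave out 1 library (open circles). Ccnd1, Ccnd2 and Cdkn1a lie above 0 in every such value, Cdkn1b lies below 0, and Ccng1 crosses 0 once, at -0.00815 without BPS replicate 1.

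In the p53 axis only the p21 gene reached the threshold. Cdkn1a stood at 148, 145, 139.9, 157 and 145 CPM in DMSO and at 178, 156, 162, 165 and 155 CPM in BPS. Of the BPS libraries, 3 lay above all DMSO libraries, and replicates 2 and 5 lay just under DMSO replicate 4. This gave a log2 fold change of 0.15 with SE 0.04, a rise of 11.1%, and an adjusted p by edgeR of 0.0498, rank 707 by p among 711 called genes. The call held in 5 of 18 alternative settings, among them the DESeq2 Wald test (adjusted p = 0.00845). AC167363.2 on the opposite strand shares 273 exonic bases with Cdkn1a. The Cdkn1a call was lost in the fits that lacked any single library other than DMSO replicate 4 or BPS replicate 5 (edgeR, adjusted p of 0.0558 to 0.110). By edgeR it was also lost with DESeq2 size factors (0.0508), with library size alone (0.0883), without the filter (0.0559) and with exact accession versions (0.0959). In limma-voom the adjusted p of Cdkn1a was 0.0532.

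Trp53 itself stood at 133, 141, 138, 136 and 138 CPM in DMSO and at 148, 143, 142, 139.6 and 136 CPM in BPS. The groups overlapped, with 3 BPS libraries above all DMSO libraries. Its log2 fold change was 0.05 (95% interval -0.01 to 0.10, adjusted p = 0.330 by edgeR). The pseudogene Trp53-ps is 94.96% identical to Trp53 over 1170 bases and could share reads with it, so this value is uncertain as well.

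Mdm2 stood at 87.7, 84.7, 80.4, 85.6 and 87.1 CPM in DMSO and at 90.3, 82.4, 86.0, 87.7 and 88.2 CPM in BPS. Ccng1, the gene of cyclin G1, stood at 306, 295, 279, 293 and 289.8 CPM in DMSO and at 330.4, 275, 292, 301 and 294 CPM in BPS. Both overlapped between the groups. The log2 fold changes were 0.03 for Mdm2 (95% interval -0.03 to 0.10, adjusted p = 0.640 by edgeR) and 0.03 for Ccng1 (95% interval -0.06 to 0.12, adjusted p = 0.762 by edgeR), and Ccng1 turned to -0.00815 without BPS replicate 1. Neither interval excludes 0, and their upper ends lie at 0.10 and 0.12.

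The remaining CDK inhibitors did not pass the test. Cdkn1b, the p27 gene, stood at 76.9, 75.4, 80.9, 79.5 and 77.5 CPM in DMSO and at 73.6, 71.1, 72.0, 73.0 and 79.6 CPM in BPS. Of the BPS libraries, 4 lay below every DMSO library, and BPS replicate 5 lay above 4 of them. Its log2 fold change was -0.08 with SE 0.03 (adjusted p = 0.193 by edgeR), and without BPS replicate 5 it was -0.11 and passed the test (adjusted p = 0.0357). It was the only one of the 10 genes with a value below 0.

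Cdkn2a stood at 23.9, 25.3, 23.9, 25.99 and 24.2 CPM in DMSO and at 28.1, 27.6, 27.3, 25.96 and 25.4 CPM in BPS. The groups overlapped, with 3 BPS libraries above all DMSO libraries. Its log2 fold change was 0.12 with SE 0.04 (adjusted p = 0.0835 by edgeR), and the adjusted p ran from 0.0556 to 0.170 over the 18 alternative settings.

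Cdkn2b stood at 26.4, 27.5, 23.3, 27.01 and 26.1 CPM in DMSO and at 31.1, 25.6, 28.6, 26.6 and 25.5 CPM in BPS. Its log2 fold change was 0.08 (95% interval -0.05 to 0.21, adjusted p = 0.553 by edgeR), the widest interval of the 10 genes. It was 0.03 without BPS replicate 1 and 0.04 without DMSO replicate 3. BPS replicate 1 had the highest BPS value in 7 of the 10 genes, and DMSO replicate 3 the lowest DMSO value in 6. Without BPS replicate 1 the log2 fold changes of the called genes were 0.17 for Ccnd2, 0.18 for Ccnd1 and 0.12 for Cdkn1a, with adjusted p by edgeR of 0.00462, 0.0406 and 0.0616. Without DMSO replicate 3 they were 0.17, 0.19 and 0.13, with adjusted p by edgeR of 0.00609, 0.0519 and 0.110.

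The transcripts of these genes were also tested singly, because Cdkn2a makes different proteins and Cdkn1a and Ccnd2 have several transcripts. All 23 RefSeq transcripts of the 10 genes were among the 37588 tested, of which 126 were called (0.335%) and 2.54% did not overlap between groups. Among the 23, edgeR called 0, with 6 at an unadjusted p under 0.05 (6.83% of all transcripts) and a lowest adjusted p of 0.109. The DESeq2 Wald test called 5, and 3.74% of the 21546 transcripts it gave an adjusted p. CPM in this fit are taken over all transcripts, including those without a gene, so they lie slightly under the gene values.

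Cdkn2a counts came to 59.9% from the p19Arf transcript (NM_009877.2) and to 40.1% from the p16Ink4a transcript (NM_001040654.1), which share their later exons. The p16Ink4a transcript stood at 9.05, 8.95, 8.08, 9.59 and 7.06 CPM in DMSO and at 10.5, 9.59, 10.7, 11.9 and 11.1 CPM in BPS. The lowest BPS value, in replicate 2, exceeded the highest DMSO value, in replicate 4, only in the fourth digit (9.5899 against 9.589), so the separation of the groups is marginal. On the log2 scale the difference was 0.33 with SE 0.10, and the adjusted p was 0.375 in edgeR and 0.0211 in the DESeq2 Wald test. The p19Arf transcript stood at 13.3, 14.6, 14.2, 14.6 and 15.5 CPM in DMSO and at 15.7, 16.2, 14.8, 12.4 and 12.6 CPM in BPS, overlapping widely, with a log2 fold change of -0.01 (adjusted p = 0.99997 by edgeR).

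The p16Ink4a share of Cdkn2a counts was 40.5, 37.9, 36.2, 39.6 and 31.3% in DMSO and 40.2, 37.2, 42.0, 48.9 and 46.9% in BPS. BPS replicates 3, 4 and 5 lay above all DMSO libraries, and BPS replicates 1 and 2 lay within the DMSO range. A test of transcript use over 7410 genes with at least 2 tested transcripts called 13 (0.175%). None of the 6 members with several transcripts was among them, and Cdkn2a alone had an unadjusted p under 0.05 (adjusted p = 0.843 by edgeR). Reads outside the separate first exons are divided between both transcripts by estimation, so these shares carry that uncertainty.

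Cdkn1a counts came to 81.8% from the transcript of the proximal start (NM_007669.5) and to 18.2% from that of the distal start (NM_001111099.2), which lies next to the p53 match printed above. The proximal transcript stood at 114, 107, 105, 121 and 109 CPM in DMSO and at 133, 124, 120.3, 124 and 126 CPM in BPS. The groups overlapped only between DMSO replicate 4 and BPS replicate 3, and the log2 fold change was 0.17 (SE 0.04, adjusted p = 0.206 by edgeR and 0.00393 by DESeq2). The distal transcript stood at 24.3, 27.6, 25.3, 25.0 and 25.7 CPM in DMSO and at 32.8, 21.6, 30.3, 30.4 and 18.7 CPM in BPS. Its BPS values lay on both sides of the DMSO values, and its log2 fold change was 0.07 with SE 0.15 (adjusted p = 0.99997 by edgeR). The difference between the starts was not called in the test of transcript use (edgeR's diffSpliceDGE).

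Most Ccnd2 counts, 77.4%, went to a predicted transcript (XM_006505460.1), and 22.05% to the curated NM_009829.3. The predicted transcript lay at 424 to 453 CPM in DMSO and 458 to 487 CPM in BPS, and the curated transcript at 106 to 125 and 127 to 162 CPM. Neither overlapped between groups. Their log2 fold changes were 0.12 (SE 0.02, adjusted p = 0.109 by edgeR and 0.000263 by DESeq2) and 0.29 (SE 0.07, adjusted p = 0.161 by edgeR and 0.00099 by DESeq2). The single Ccnd1 transcript was the fifth that DESeq2 called (adjusted p = 0.00271, against 0.197 by edgeR). In Trp53, Mdm2 and Ccnd3 no transcript was called by edgeR, nor by DESeq2 among those it gave an adjusted p. The plot by transcript shows the separate starts of Cdkn2a and Cdkn1a and the main transcripts of Ccnd2.

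**Figure D3:**
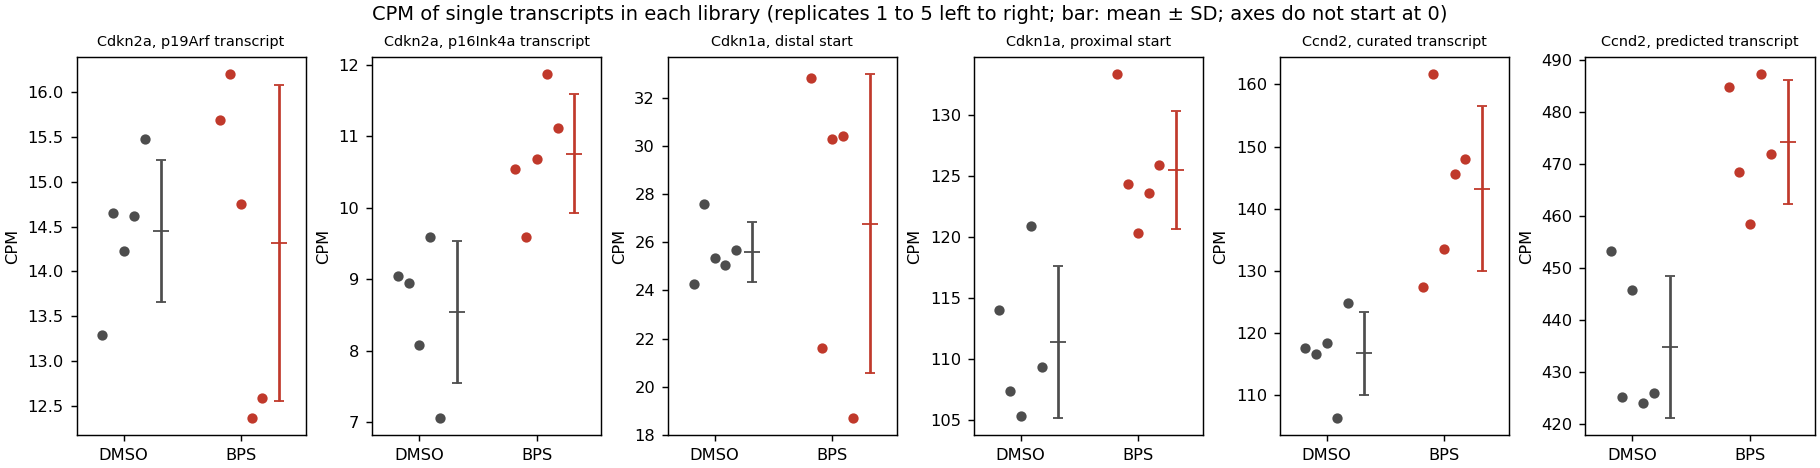
CPM (y axis, own range in each panel) of 6 transcripts of Cdkn2a, Cdkn1a and Ccnd2 in the DMSO libraries (grey) and the BPS libraries (red), replicates 1 to 5 from left to right, with the mean and SD of each group. The p16Ink4a transcript ranges from 7.06 to 9.59 CPM in DMSO and from 9.59 to 11.9 CPM in BPS, while the p19Arf and distal Cdkn1a transcripts overlap widely.

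Levels can be compared between transcripts only per length, which was possible where a RefSeq accession matched 1 GENCODE transcript alone. In DMSO the highest of these were Ccng1 with 77.7 ± 2.53 and Ccnd1 with 75.7 ± 4.91 CPM per kilobase (SD, n = 5), which did not differ beyond their spread. The main transcripts of Cdkn1a and Trp53 followed at 58.2 ± 3.25 and 57.2 ± 1.84 CPM per kilobase, also within their spread. Cdkn1b had 30.4 ± 0.847, the distal Cdkn1a transcript 27.8 ± 1.35, the main curated Ccnd3 transcript 26.1 ± 1.87, Cdkn2b 17.5 ± 1.08, the p19Arf transcript 16.2 ± 0.885 and the p16Ink4a transcript 10.03 ± 1.16 CPM per kilobase. Under BPS, Ccnd1 reached 87.3 ± 4.19 and the p16Ink4a transcript 12.6 ± 0.978 CPM per kilobase. The curated Ccnd2 transcript had 18.4 ± 1.05 CPM per kilobase in DMSO. The length of the predicted one, which holds most Ccnd2 counts, was not at hand, so Ccnd2 as a whole has no place in this order. The Ccnd3 transcript listed holds 50.3% of that gene's counts, and another, without a length, holds 40.0%. Ccnd3 as a whole therefore has no place in it either.

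Genes around these 10 were read from the same fit, in 8 lists of 137 genes, not all of which were tested. Of them 14 were called, where edgeR called 4.87% of all genes tested. Among 31 other p53 target genes, 30 were tested, and 4 rose and 0 fell by edgeR, against 3.06% and 1.82% of all genes. Their median log2 fold change was 0.05, against 0.000319 for all genes. At an unadjusted p under 0.05 by edgeR, 11 of them were higher and 1 was lower, against 10.2% and 8.61% of all genes, and DESeq2 called 4 higher and 0 lower, against 4.39% and 2.99%. Btg2, which restrains proliferation, went from 12.6 ± 0.628 CPM to 15.9 ± 1.33 CPM, a log2 rise of 0.34 with SE 0.06 (adjusted p = 0.00827 by edgeR). Plk2, a polo-like kinase, rose from 227 ± 7.51 to 252 ± 8.63 CPM (log2 fold change 0.15, adjusted p = 0.0124 by edgeR). Lif, a cytokine of the interleukin 6 family, rose by 0.26 on the log2 scale and Zmat3, an RNA-binding p53 target, by 0.13 (adjusted p of 0.0203 and 0.0233 by edgeR). The calls held in all 18 alternative settings for Btg2 and Plk2, in 14 for Lif and in 12 for Zmat3. Both Lif and Zmat3 were lost with the replicate block and with exact accession versions, where Lif had a log2 fold change of 0.17 (adjusted p = 0.312 by edgeR). Lif was also lost without BPS replicate 2 or 4, and Zmat3 without DMSO replicate 1, 2 or 3 and with library size alone.

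Genes that control p53 protein or activity gave no call by edgeR in 16 tested. Their median log2 fold change was -0.05, against 0.000319 for all genes, with 13 values below 0 and 3 above. At an unadjusted p under 0.05 by edgeR, 2 were higher and 4 lower, against 10.2% and 8.61% of all genes. DESeq2 called 2 of the 16, Kat5 and Hipk2, both higher, against 4.39% higher and 2.99% lower of the genes it gave an adjusted p. With limma-voom 0 were called. Mdm4, the partner of Mdm2 in holding back p53, went from 104 ± 3.34 CPM to 101 ± 3.76 CPM without passing the test (adjusted p = 0.427 by edgeR).

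Among the other CDK inhibitors, G1 kinases and RB-E2F genes, 0 of 18 rose and 3 fell, each by 0.13 on the log2 scale. Of all genes, edgeR called 3.06% higher and 1.82% lower. At an unadjusted p under 0.05 by edgeR, 3 of the 18 were higher and 3 lower, against 10.2% and 8.61% of all genes. DESeq2 called 0 higher and 3 lower, against 4.39% and 2.99% of the genes it gave an adjusted p. With limma-voom 0 were higher and 2 lower, where 695 of 14593 genes were called in either direction. The genes that fell were Rbl2, the pocket protein p130 (52.3 ± 1.16 to 47.8 ± 1.41 CPM), the INK4 inhibitor Cdkn2c, p18Ink4c (72.9 ± 2.93 to 66.8 ± 1.16 CPM), and the INK4 inhibitor Cdkn2d, p19Ink4d (38.6 ± 1.09 to 35.3 ± 1.51 CPM). Their adjusted p by edgeR were 0.0152, 0.0250 and 0.0471, and the calls held in 17, 12 and 5 of 18 alternative settings. Cdkn2c was lost without DMSO replicate 3, 4 or 5 or BPS replicate 2, 3 or 5, and Cdkn2d in every fit that left out 1 library except that without BPS replicate 1. The D cyclin partner Cdk4 had 291 ± 6.78 and 293 ± 4.31 CPM (adjusted p = 0.854), and Cdk6 had 26.98 ± 0.485 and 28.5 ± 0.614 CPM (log2 fold change 0.08, adjusted p = 0.0968), both by edgeR. Rb1 (adjusted p = 0.913) and the CIP/KIP inhibitor Cdkn1c (0.32 with SE 0.11 on the log2 scale, adjusted p = 0.144 by edgeR) did not pass the test. Cdkn1c passed it without DMSO replicate 4 (log2 fold change 0.42, adjusted p = 0.0298 by edgeR).

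Proliferation markers gave 3 of 12 genes lower and 0 higher by edgeR, against 1.82% and 3.06% of all genes. Their median log2 fold change was -0.11, against 0.000319 for all genes, with 9 values below 0 and 3 above. The values above 0 were those of Mcm2 (0.10), Mcm5 (0.04) and Pcna (0.01), none of which passed the test. Mki67, the gene of the Ki-67 antigen, fell from 643 ± 28.9 CPM to 562 ± 29.8 CPM, which is -0.19 on the log2 scale with SE 0.04 (adjusted p = 0.0155 by edgeR). Top2a, a topoisomerase of dividing cells, changed by -0.14 and Bub1, a spindle checkpoint kinase, by -0.14 on the log2 scale (adjusted p of 0.0235 and 0.0456 by edgeR). At an unadjusted p under 0.05 by edgeR, 1 marker, Mcm2, was higher and 7 lower, against 10.2% and 8.61% of all genes. DESeq2 called 5 lower and 0 higher, against 2.99% and 4.39% of the genes it gave an adjusted p. The fits that each left out 1 library called 1 to 6 of them lower, with 1 without DMSO replicate 1, 2 or 5 or BPS replicate 2, 3 or 5, and 6 without BPS replicate 1. Exact accession versions called 0 of the 9 then tested, which did not include Mki67. The Mki67 call held in 16 of the 17 alternative settings that tested it, and was lost with the replicate block.

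Senescence genes and their secreted factors moved in both directions. Of 19 genes, 16 were tested, and 2 rose and 2 fell by edgeR and by DESeq2. Among all genes, edgeR called 3.06% higher and 1.82% lower, and DESeq2 4.39% and 2.99%. At an unadjusted p under 0.05 by edgeR, 3 of the 16 were higher and 5 lower, against 10.2% and 8.61% of all genes. The matrix protease Mmp3 fell from 338 ± 15.96 CPM to 235 ± 8.76 CPM, which is -0.53 on the log2 scale with SE 0.03 (adjusted p = 1.42e-05 by edgeR). The chemokine Cxcl5, at 1.997 ± 0.328 and 1.28 ± 0.233 CPM, fell by 0.64 on the log2 scale (adjusted p = 0.0382 by edgeR). That call held in 6 of 18 alternative settings and, of the fits leaving out 1 library, only in that without DMSO replicate 5. The insulin-like growth factor binding proteins Igfbp7 and Igfbp5 rose by 0.16 and 0.29 on the log2 scale (adjusted p of 0.00159 and 0.0181 by edgeR). The groups overlapped in Igfbp5, and its call was lost with the replicate block (adjusted p = 0.0575 by edgeR). The calls held in 18 of 18 alternative settings for Igfbp7 and in 17 for Igfbp5. The nuclear lamina gene Lmnb1, whose loss marks senescence, had 181 ± 2.86 and 174 ± 5.99 CPM (log2 fold change -0.05, adjusted p = 0.234 by edgeR).

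The lists for degradation of D cyclins and p27 (13 tested), for regulators of the Ink4/Arf locus (15 tested) and for transcription factors upstream of D cyclin and p27 genes (12 tested) gave 0 calls each by edgeR, DESeq2 and limma-voom. At an unadjusted p under 0.05 by edgeR they held 0, 1 and 1 genes higher and 0, 1 and 0 lower, against 10.2% and 8.61% of all genes. Their median log2 fold changes were 0.00137, -0.0034 and -0.00306, and each was on both sides of 0 over the alternative settings. Myc, a growth-promoting transcription factor, had 60.8 ± 2.40 CPM under DMSO against 61.3 ± 2.36 CPM under BPS (adjusted p = 0.898 by edgeR).

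**Figure D4:**
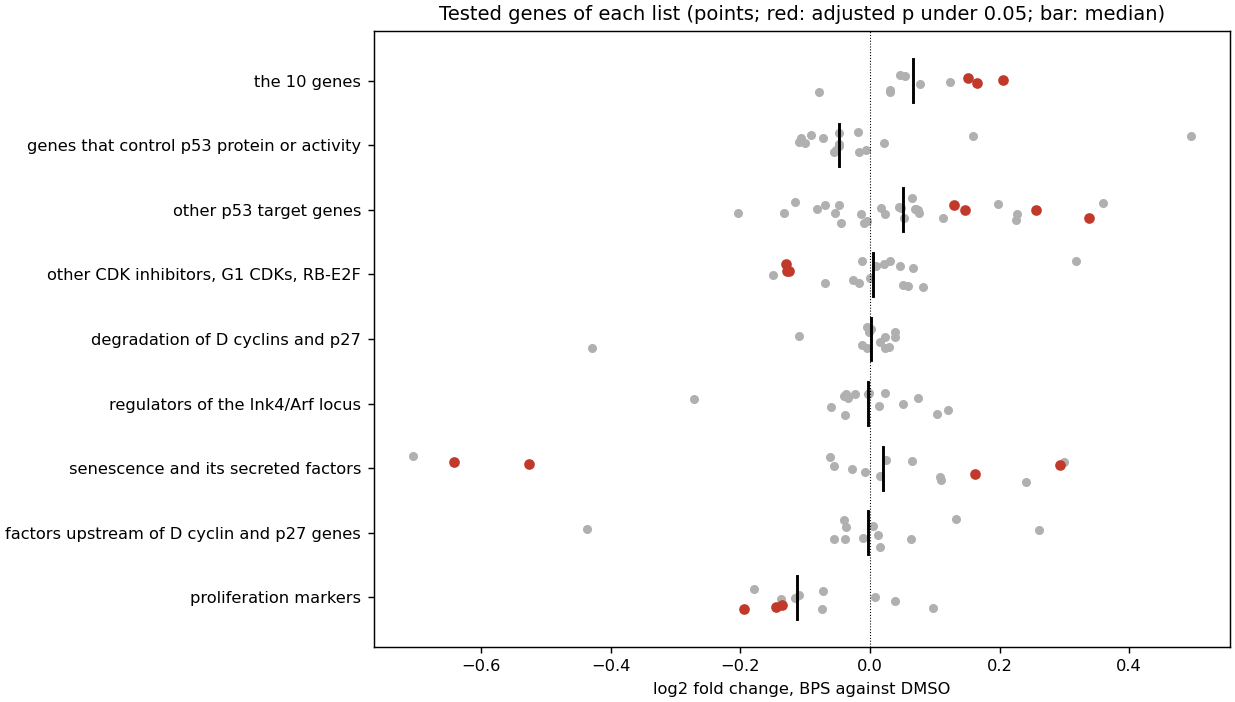
Log2 fold change, BPS against DMSO (x axis), of each tested gene of the 10 genes and of the 8 other lists (rows), with called genes in red and the median of each list as a bar. Calls lie above 0 for the 10 genes and the p53 targets, below 0 for the proliferation markers and the CDK inhibitor and RB-E2F list, and on both sides for senescence genes.

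**Figure D5:**
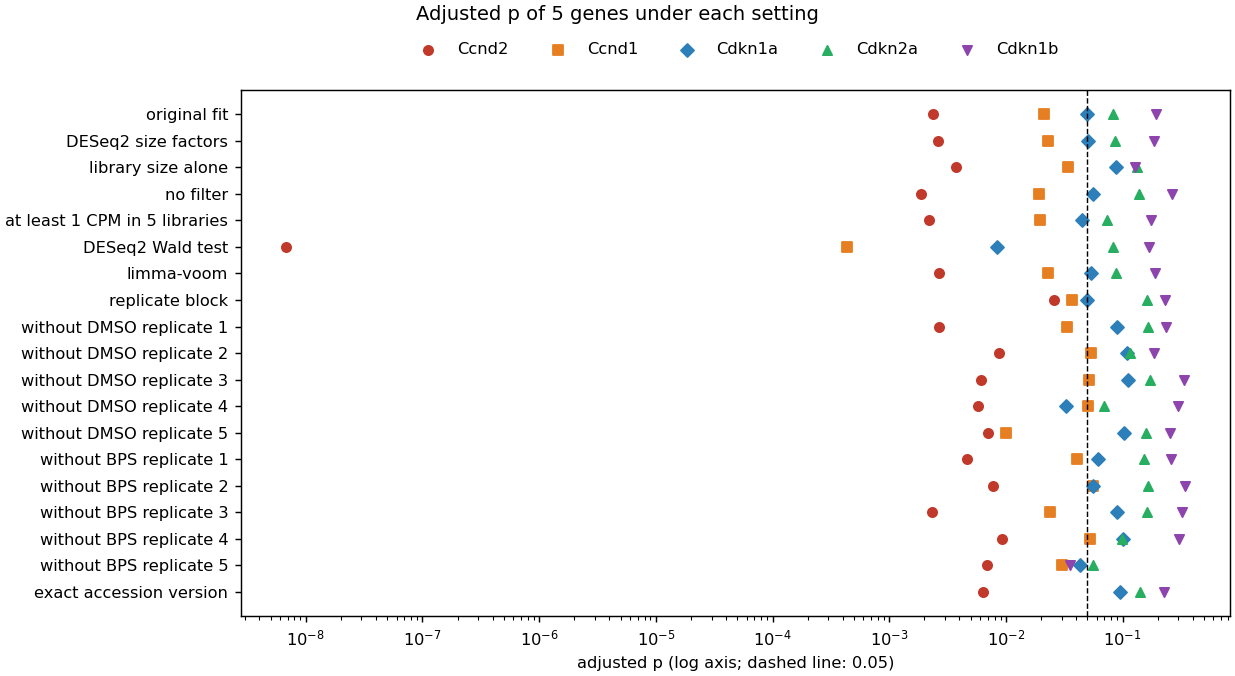
Adjusted p (x axis, log scale, dashed line at 0.05) of 5 of the 10 genes in the original fit and in 18 alternative settings (rows). Ccnd2 lies left of the line in each, Ccnd1 in 12 of the 17 in which it was tested, and Cdkn1a in 5 of 18.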

How the data were processed

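The library kit keeps strand, per the labels' protocols. The authors deposited estimated counts per RefSeq transcript, made with kallisto 0.42.4 per the submitters' processing notes. Index, build and strand setting were not given in the sources used here. Columns were matched to samples by library code, and 0 were left over. Accessions without version were assigned to genes through a RefSeq table of GRCm38.p6 (86714 of 107384 transcripts, 93.1% of the counts), and counts were summed per gene and rounded. Genes passing filterByExpr were scaled by TMM (factors 0.9854 to 1.008) and tested with edgeR 4.0.16 by the quasi-likelihood test without covariates in R 4.3.3, with Benjamini-Hochberg adjustment over all genes. The threshold was an adjusted p under 0.05. SE is the log2 fold change over the square root of F, and 95% intervals use the t distribution. Single transcripts were tested alike, and transcript use with diffSpliceDGE, chosen after the data had been seen. Alternatives used DESeq2 1.42.0 and limma 3.58.1. Chi-square per degree of freedom between libraries of a group was 4.13 to 8.77, above counting error, so none was a copy. Similar transcripts were sought with BLASTN 2.17.0. The code was tested on simulated data.

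The members and lists were chosen with earlier results of these data known. All 10 members were named, and of each other list up to 5 called genes with the smallest p, plus 9 genes fixed by name. Of the senescence list, 1 gene is not reported here. Transcripts of Cdkn2a, Cdkn1a and Ccnd2 were named at 5% or more of their gene's counts or when called. In Trp53, Mdm2 and Ccnd3, transcripts above that share were not named singly. Only the main Trp53 and main curated Ccnd3 transcripts have values, as levels per length. Kat5, Hipk2, LTO1, Bysl, Mcm2, Mcm5, Pcna and single marker genes were named after their values had been seen. Alternatives changed the scaling, the low-count filter, the tool and the accession matching, added a replicate block, and left out each library in turn. Coordinates of promoter windows are those of the RefSeq set, since the authors' build was not given.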

Additional observations from a re-analysis of the deposited data

Results flagged for a closer look

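Of 86 groups of 5 values, for the 10 genes, their main transcripts and the named list genes, 2 held a value whose gap to its neighbour passed Dixon's limit for 5 values, and chance, at about 1 in 20 groups, gives 4.3. Neither concerned the 10 genes or their transcripts. Lif was low in BPS replicate 1, at 11.1 CPM against 11.8 to 12.1 CPM in the other BPS libraries. Igfbp5 was high in DMSO replicate 4, at 185 CPM against 144 to 152 CPM.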

How the results depend on the processing

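The number of called genes, 711, was 371 with the replicate block and 327 with exact accession versions, and 449 to 773 when single libraries were left out, moving by over 1.5 times without DMSO replicate 2 and without BPS replicates 2, 3 and 4. Of the 10 genes, 3 were called, 1 with exact accession versions (where Ccnd1 could not be tested) and 1 to 4 when single libraries were left out, with 4 without BPS replicate 5 (Cdkn1b, lower, was added) and 1 without DMSO replicates 2 or 3 and BPS replicates 2 or 4. Ccnd2 was the gene that stayed in each. The 14 calls of the other lists were 5 with the replicate block, 7 with exact accession versions and 9 to 17 when single libraries were left out, with 9 without DMSO replicate 2, BPS replicate 2 or BPS replicate 5. Called transcripts of the 10 genes were 0 by edgeR and 5 by DESeq2. The block left the calls of the 10 genes as they were and removed all 3 calls of proliferation markers (Mki67 0.0528, Top2a 0.0531 and Bub1 0.0584, adjusted p by edgeR). Same-numbered libraries' deviations correlated at 0.1003, 0.00402, -0.0669, 0.072 and -0.0779, and the numbers were not taken to pair libraries. Values near 0 turned with library size alone for Cdk4 (-0.00582) and Myc (-0.00303). With single libraries left out, Ccng1 ran from -0.00815 to 0.0587, Cdk4 from -0.00449 (without DMSO replicate 1) to 0.0178, Myc from -0.00759 (without DMSO replicate 1; -0.00706 without BPS replicate 2) to 0.0302, and Rb1 from -0.0567 to 0.0169 (without BPS replicate 2; 0.00966 without BPS replicate 3). The cause was not tested.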
